A study of Mus musculus with 2 samples.

Results

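Endothelial cells line the blood vessels of a tumour, and the 195 described here were chosen by their UMI counts from 28854 filtered cells of 4T1 tumours. A cell was a member if it held 5 or more UMIs in sum of Pecam1, Cdh5, Kdr, Emcn and Egfl7, which encode junction and receptor proteins of the vessel wall. It also had to hold no UMI of the leukocyte gene Ptprc, fewer than 10 UMIs per 10000 of the keratins Krt8 and Krt18, fewer than 100 per 10000 in sum of the collagens Col1a1 and Col3a1 and likewise of the neutrophil genes S100a8 and S100a9, and at most 2 UMIs of the macrophage genes C1qa, C1qb and C1qc. From the AptCD4-LNT library 49 of 8853 cells passed, and from the Untreated library 146 of 20001. The levels of the gate genes chose these cells, so their values are a description.

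Both libraries came from BALB/c mice bearing tumours of 4T1, a mouse line of triple-negative breast cancer. The study's title concerns the activation of CD4+ T cells against such tumours. The AptCD4-LNT mice received AptCD4-LNT in doses of 5, 4 and 3 (in units of 1000000 cells) at intervals of 3 days and were killed on day 9, and the Untreated mice received PBS. The labels call the material tumour cells, although whole tumours were dissociated. Tissue of 3 tumours was mixed into each library, no barcode is tied to a mouse, and each group has 1 library. The spread between mice is therefore unknown, and no test between the groups could be made. Every interval below is an exact 95% interval that covers counting error only, and a gene is called higher or lower by size alone, at 1.5-fold or more.

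Endothelial cells differ along the vessel tree. Tip cells lead new sprouts and make Esm1, Apln and Angpt2, capillary cells take up fatty acids through Cd36 and Fabp4, venous cells make Nr2f2 and the adhesion molecules that stop leukocytes, and arterial cells make Sox17 and the connexins Gja4 and Gja5 under Notch signals. Endothelial cells also answer interferon with chemokines and antigen-presenting molecules, through which vessels and lymphocytes interact.

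The gated cells were 0.553% (0.410 to 0.731) of AptCD4-LNT cells and 0.730% (0.617 to 0.858) of Untreated cells, and the interval of their ratio, 0.758 (0.537 to 1.05), includes 1. Among cells without a Ptprc UMI the shares were 0.863% and 1.02%, a ratio of 0.847 (0.600 to 1.18). The AptCD4-LNT members held a median of 8744 UMIs and 3287 genes, and the Untreated members 4604 UMIs and 2093 genes, so shares of cells with a UMI are given at 2000 UMIs a cell, for the 44 and 117 members at least that deep. Summed over members the libraries gave 545011 and 896144 UMIs, and gene levels are given per 1000000 of these UMIs (CPM). In bulk sums of this kind fewer cells with a gene and less RNA per cell cannot be told apart, and shares of cells are given beside the main results. The deepest member gave 7.22% and 4.51% of its library's sum. The members' median sum of the 5 gate genes was 54 UMIs in the AptCD4-LNT library and 26 in the Untreated library. Just outside the threshold, with 4 such UMIs, lay 2 and 6 cells, and just inside it, with 5, lay 0 and 7. The 42 barcodes shared by the libraries included no member.

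Markers that the gate did not use were high in the members, as the label asks. All 26 members of a pan-endothelial list held 30 or more UMIs over both libraries. The junction gene Esam stood at 996 and 1140 CPM in the AptCD4-LNT and Untreated members, against 2.7 and 2.1 CPM in all other filtered cells. The caveolar diaphragm gene Plvap stood at 1035 and 1162 CPM against 2.8 and 2.3, and was found in 93.9% and 89.7% of members before thinning. The transcription factor Sox18 stood at 405.5 and 306 CPM against about 0.5 in the rest of either library. These ratios describe the members only, because the gate chose cells by genes of the same type. The lymphatic regulator Prox1 gave 0 and 3 UMIs and Mmrn1, Reln, Ccl21a and Sema3d gave none, while Lyve1, which some macrophages also make, gave 18.3 and 50.2 CPM. Glycam1, Chst4 and Fut7 of high endothelial venules, the vessels through which lymphocytes enter lymph nodes, also gave none.

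In the summed UMIs a few tip genes stood higher in the AptCD4-LNT members, and most were near level. Of 17 measured tip genes (30 or more UMIs over both libraries), 4 were 1.5-fold or more higher and 0 lower, where 9.17% of all 6387 measured genes were that far higher and 9.1% lower. The list's median log2 ratio was 0.20, against 0.02 for all measured genes. With cells thinned to 2000 UMIs, 9 of 15 tip genes were higher and 0 lower. With each cell weighted equally 7 of 17 were higher and 1 lower. Of all genes 252 of 2065 and 855 of 6387 were that far higher in these settings. Esm1, a secreted proteoglycan of sprouting cells, stood at 512 CPM (454 to 576) in the AptCD4-LNT members and 266 CPM (233 to 302) in the Untreated members, 1.93-fold apart (1.62 to 2.30). Apln, the apelin ligand made by tip cells, stood at 811 CPM (737 to 890) against 459 (415 to 505), 1.77-fold apart (1.54 to 2.03). The other 2 called genes were the dilating peptide Adm, at 290 against 154 CPM, and the chemokine receptor Cxcr4, at 228 against 145 CPM. All 4 stayed higher under each alternative gate, scaling or weighting tried, with Esm1 between 0.71 and 1.41 and Apln between 0.67 and 1.46 on the log2 scale.

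The other tip genes lay within 1.5-fold of level in the summed UMIs. Angpt2, the vessel-destabilising ligand, stood at 273 against 206 CPM, the Notch ligand Dll4 at 229 against 182, Pdgfb, which recruits pericytes, at 451 against 320, and the growth factor Pgf at 209 against 190. Nid2 and Fscn1 were level at 264 against 274.5 and 492 against 493 CPM. Kcne3, Lxn and Trp53i11 lay below level, at 78.9 against 117, 123 against 181 and 442 against 594 CPM. The members of the list thus lay on both sides of level, 10 above it and 7 below.

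Cells that held Apln or Esm1, genes chosen after their values were seen, made up different shares of the members. At 2000 UMIs a cell, 70.0% (54.8 to 83.2) of AptCD4-LNT members held a UMI of Apln or Esm1, against 29.8% (21.8 to 39.1) of Untreated members, 2.35 times as many (1.40 to 3.93). Before thinning the shares were 85.7% and 34.9%. Over the other gates and thinning depths the ratio lay between 1.83 and 2.91, and under the stricter limits on other-cell genes it was 2.10 with an interval of 0.905 to 4.34 that includes 1. For the whole list the shares lay closer together, with 3 or more tip genes in 87.0% (72.6 to 94.8) and 72.1% (62.7 to 79.7) of thinned members. Esm1 alone was found in 43.8% (28.3 to 59.0) and 17.9% (11.5 to 26.1) of thinned members, and in 0.049% and 0.047% of epithelial-gated cells and 0% of neutrophil-gated cells in both libraries. Apln was found in 55.3% and 25.3% of thinned members, 3.78% and 4.30% of epithelial-gated cells and 0.328% and 0.309% of neutrophil-gated cells. Median depths before thinning were 17368 and 7213.5 UMIs in epithelial-gated cells and 1397 and 872 in neutrophil-gated cells. The members' shares of both genes thus lay above the background of other cells in each library.

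**Figure D1:**
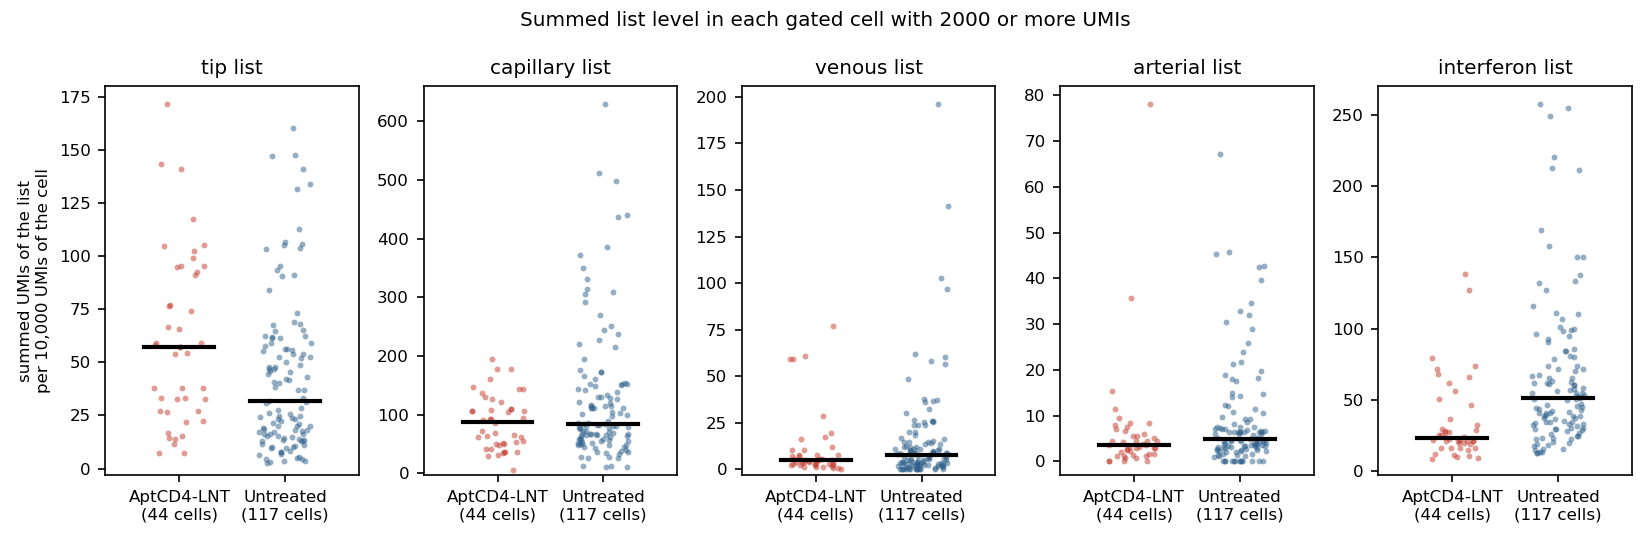
Summed UMIs of the tip, capillary, venous, arterial and interferon lists per 10,000 UMIs of a cell (vertical axes, linear, each panel on its own scale), with 1 point per gated cell of 2000 or more UMIs and a bar at the median of the 44 AptCD4-LNT and 117 Untreated cells. The median tip level was 57.3 in AptCD4-LNT and 31.7 in Untreated cells and the median interferon level 23.02 and 51.4, and the cells of the libraries overlapped in every panel.

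Capillary genes summed to 8314 CPM in the AptCD4-LNT and 11847 CPM in the Untreated members, and without Fabp4 to 3103 and 3415 CPM, so most of the gap was that gene. The median of the list depended on which cells were kept. Of 13 measured genes 1 was called higher and 5 lower, where 9.17% of all measured genes were higher and 9.1% lower. The list's median log2 ratio was -0.36. Fabp4, the fatty acid carrier of capillary cells, stood at 5211 CPM against 8433, 1.62-fold lower (1.55 to 1.69). The fatty acid receptor Cd36 stood at 167 against 382 CPM, 2.29-fold lower (1.81 to 2.91), and the carbonic anhydrase Car4 at 20.2 against 75.9. The transcription factor Tcf15, known from fatty acid transport in heart capillaries, gave 1 UMI against 43, a ratio of 26.2 (4.45 to 1057). Lpl, the lipase that frees fatty acids at the vessel wall, gave 0 UMIs against 48. Taking the limit that a count of 0 allows, 3 UMIs over the AptCD4-LNT members or 5.50 CPM, that is at least 9.73-fold lower. Meox1 was the called gene on the other side, at 158 against 92.6 CPM, and Gpihbp1, the capillary anchor of lipoprotein lipase, stood at 692 against 488 CPM.

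Pericyte genes also differed in sum, and most of the Untreated sum came from a few cells. The 8 pericyte markers summed to 55.0 CPM in the AptCD4-LNT and 273 CPM in the Untreated members, led by Rgs5 with 6 and 141 UMIs. Any of them was held by 14 of 49 and 32 of 146 members, so that share was not lower in the AptCD4-LNT library. The highest Untreated cells held 68.8, 58.5, 54.4 and 50.3 of these UMIs per 10000, and the highest AptCD4-LNT cell 5.17. A single cell gave 22.4% of the Untreated pericyte UMIs. Cspg4 and Notch3 were at 0 in the AptCD4-LNT members and gave 2 and 9 UMIs in the Untreated. Without the cells that held Rgs5, Cspg4, Notch3, Higd1b or Ndufa4l2, which left 45 and 135 members, the capillary median was 0.05 over 10 measured genes, with 2 higher and 2 lower. Under stricter limits on other-cell genes, which left 27 and 81 members, it was 0.17, with 3 higher and 2 lower. Of all genes measured without the pericyte-gene cells, 568 of 5982 were higher and 600 lower. Under the stricter limits 409 of 3857 were higher and 513 lower. In these settings Fabp4 was no longer 1.5-fold apart, at log2 ratios of -0.41 and -0.43, while Cd36 was lower in both, at -0.59 and -0.90. Tcf15 gave 1 UMI against 21 without the pericyte-gene cells and 0 against 11 under the stricter limits, and Lpl gave 0 against 27 and 0 against 28. In those cells both held fewer than 30 UMIs in sum and no longer counted as measured. The part of those cells in the remaining difference was not tested.

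Venous genes gave a median of -0.38 over 12 measured members, with 1 called higher and 4 lower. Of all measured genes 9.17% were higher and 9.1% lower. The venous sum was higher within cells rich in Apln and Esm1, as given with that split. It was also higher within cells poor in them, but 1 such cell gave 17.0% of all venous UMIs of the AptCD4-LNT members. Nr2f2, the nuclear receptor that sets venous identity, stood at 60.6 against 110.5 CPM, 1.82-fold lower (1.22 to 2.79), and was found in 9.66% (2.53 to 21.7) against 21.1% (14.3 to 29.9) of thinned members. The chemokine-scavenging receptor Ackr1 stood at 27.5 against 59.1 CPM and the clotting factor Vwf at 44.0 against 71.4. Both changed side under the stricter limits, to 0.86 and 0.35 on the log2 scale, as did E-selectin, Sele, at 44.0 against 66.95 CPM in all members and a log2 ratio of 0.44 under those limits. P-selectin, Selp, which catches leukocytes, lay the other way at 248 against 180 CPM. Il1r1, the interleukin-1 receptor, was called higher at 55.1 against 34.6 CPM with an interval of the log2 ratio, -0.10 to 1.44, that includes 0. Nr2f2 was lower in each alternative, with log2 ratios between -1.21 and -0.79.

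Most arterial genes lay below level in the AptCD4-LNT members. Of 10 measured genes 5 were called lower and 1 higher, where 9.1% of all measured genes were lower and 9.17% higher. The list's median was -0.64. The median was -0.10 under the stricter limits on other-cell genes, with 3 higher and 3 lower of 6 measured, and -0.05 over the 5 genes with 100 or more UMIs. Of all genes measured under the stricter limits, 409 of 3857 were higher and 513 lower. Sox17, a transcription factor of arterial fate, stood at 112 CPM (85.6 to 144) against 210 CPM (181 to 242), 1.87-fold lower (1.40 to 2.54). The connexin gene Gja4 stood at 18.4 against 56.9 CPM on 10 and 51 UMIs, and 80.0% of the AptCD4-LNT UMIs came from 1 cell. Stmn2 gave 3 against 42 UMIs, the guidance ligand Sema3g 7 against 35 and the matrix gene Ltbp4 24 against 89. Mgp, the matrix Gla protein, stood at 176 against 30.1 CPM, but 91.7% of its AptCD4-LNT UMIs came from 1 cell, and without the highest cell of each library its log2 ratio was -0.81. Efnb2, Hey1 and Fbln5 were level, at 116 against 114, 42.2 against 44.6 and 80.7 against 83.7 CPM. At 2000 UMIs, 12.4% (3.79 to 24.6) of AptCD4-LNT and 23.6% (16.5 to 32.7) of Untreated members held Gja4, Gja5, Stmn2, Sema3g or Hey1, and the interval of the ratio, 0.525 (0.143 to 1.25), includes 1. Before thinning, at unequal depth, the shares were 30.6% and 33.6%, a ratio of 0.912 (0.475 to 1.65).

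**Figure D2:**
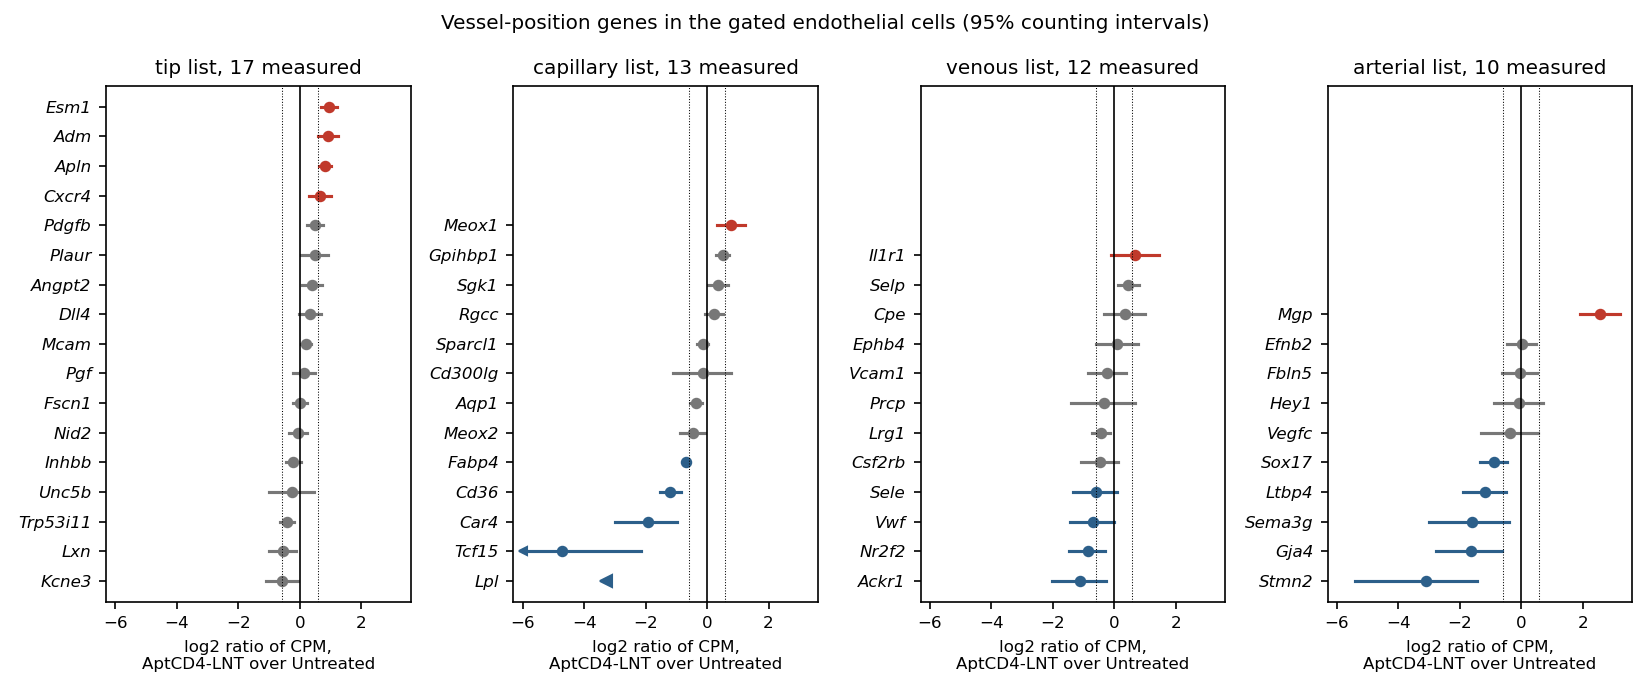
Log2 ratio of CPM, AptCD4-LNT over Untreated (horizontal axes), for the measured genes of the tip, capillary, venous and arterial lists, with exact 95% counting intervals as bars, red and blue points for genes called higher and lower, grey for the rest, and dotted lines at 1.5-fold. Lpl, at 0 UMIs in the AptCD4-LNT members, is a triangle at the limit that a count of 0 allows, and the lower bar of Tcf15 runs off the axis. The 4 called tip genes lie right of the dotted line, and the called capillary and arterial genes lie left of it except Meox1 and Mgp.

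Tip genes and capillary genes were each found in most cells, and so were both together, while venous and arterial genes were together in few. At 2000 UMIs, 93.0% of AptCD4-LNT and 83.5% of Untreated members held 2 or more genes of both the tip and the capillary list. UMIs of 2 or more venous and 2 or more arterial genes occurred together in 6.36% (1.43 to 18.7) and 14.4% (8.70 to 22.2). These shares are ranges cut from counts and do not name cell types.

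Cells rich in Apln and Esm1 shared other sprouting genes in both libraries. The split was set after the values were seen, at a summed level of 5 or more per 10000 UMIs among cells of 2000 or more UMIs, and put 29 of 44 AptCD4-LNT and 27 of 117 Untreated cells on the high side. Of the cells, 5 and 10 lay just below that level and 8 and 7 just above. Median depths were 9145 and 8468 UMIs for AptCD4-LNT cells on the high and low sides and 7768 and 4899 UMIs for Untreated cells. In the AptCD4-LNT library Pgf stood at 285 CPM in the high cells against 37.8 in the others, and in the Untreated library at 497 against 48.6. Angpt2 stood at 359 against 37.8 and 453 against 101 CPM, and Adm at 394 against 44.1 and 374 against 53.8. Kcnj2, a potassium channel, Ccn2, a matrix signal, and Ero1a, an oxidase of protein folding, were higher in the same cells of both libraries. Cxcr4 stood at 259 against 107 CPM and 276 against 85.0. These genes were picked for their size in both libraries, so they describe the split and test nothing.

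The cells poor in Apln and Esm1 had higher summed levels of some venous and inflammatory genes, most of which many of these cells lacked. Selp stood at 554 CPM in them against 95.1 in the high cells of the AptCD4-LNT library, and at 231 against 36.3 in the Untreated library. Lrg1, a venous glycoprotein of inflamed vessels, stood at 510 against 119 and 392.1 against 87.1 CPM. Thrombomodulin, Thbd, the chemokine Cxcl1, the adhesion molecule Icam1 and the prostaglandin transporter Slco2a1 lay on the same side in both libraries. Before thinning, most low cells of either library held no Selp UMI, while most held Lrg1. Thbd, Cxcl1, Icam1 and Slco2a1 were each found in most low AptCD4-LNT cells but in a minority of low Untreated cells. Fabp4 stood at 8045 against 3935 and 9658 against 5242 CPM, and Cd36 at 233 against 132 and 482 against 87.1. Both fatty acid genes were thus higher in the cells poor in Apln and Esm1, in each library.

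**Figure D3:**
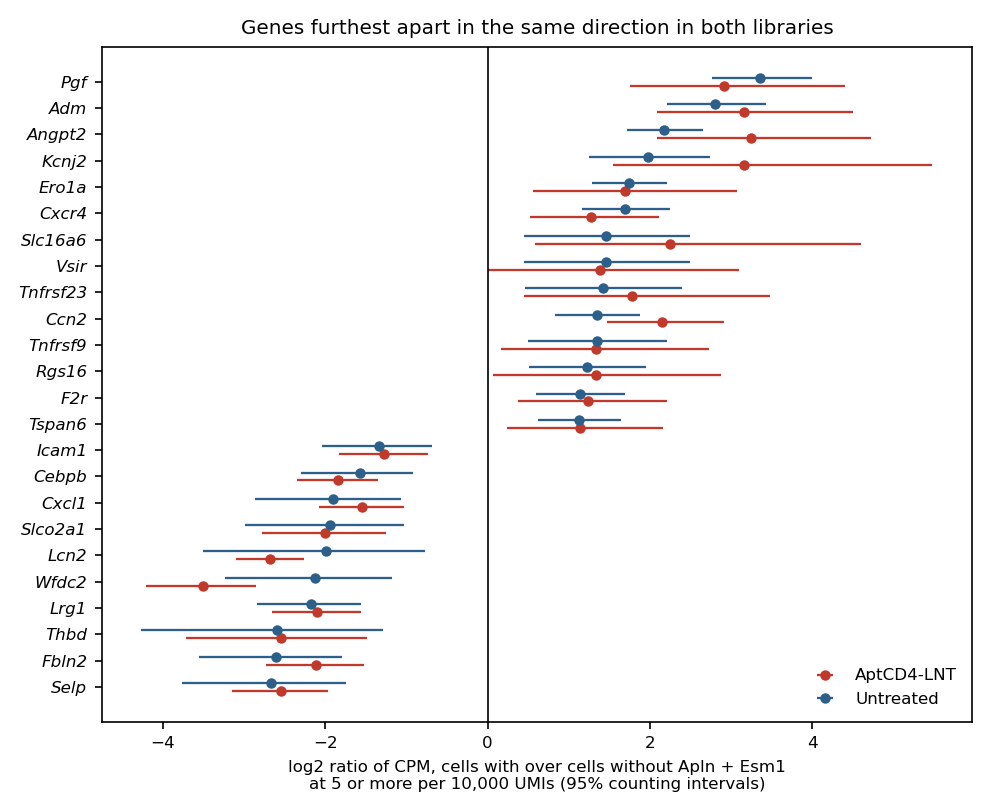
Log2 ratio of CPM in cells with over cells without 5 or more Apln and Esm1 UMIs per 10,000 (horizontal axis), in the AptCD4-LNT library (red, 29 and 15 cells) and the Untreated library (blue, 27 and 90 cells), with exact 95% counting intervals as bars. Pgf, Adm, Angpt2 and Kcnj2 are the 4 genes furthest right in both libraries, and Selp, Thbd and Fbln2 lie well left in both.

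Within each side of the split the remaining 15 tip genes were not higher in the AptCD4-LNT library. In the high cells they summed to 5293 CPM in the AptCD4-LNT and 6254 CPM in the Untreated library, with a median log2 ratio of -0.24, and in the low cells to 2537 and 3354 CPM, with a median of -0.52. Capillary genes gave medians of 0.12 in the high and -0.27 in the low cells. Venous genes, whose median over all members was below 0, stood higher in sum on both sides, at 623 against 334 CPM in the high cells and 1763 against 1452 CPM in the low cells. Their medians were 0.76 in the high cells, with 7 of 12 genes higher and 2 lower, and -0.14 in the low cells. Of all venous UMIs of the AptCD4-LNT members 17.0% came from 1 low cell. The low sum without that cell was not computed, so its direction may rest on it. Arterial genes summed to 467 against 326 CPM in the high cells, with a median of 0.02. In the low cells they summed to 1114 against 973 CPM, with a median of -0.40. Of all arterial UMIs of the AptCD4-LNT members 29.2% came from 1 low cell, the one that gave most of the Mgp UMIs. The low arterial sum without that cell was not computed, so its direction may rest on it. Of all genes with UMIs in both libraries, 16.6% were 1.5-fold or more higher and 14.4% lower in the high cells, and 18.5% higher and 17.5% lower in the low cells. The share of cells on the high side was 65.9% (50.1 to 79.5) against 23.1% (15.8 to 31.8).

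Cells rich in venous genes shared others in both libraries. Those with 5 or more UMIs of Selp, Ackr1 and Vwf per 10000 numbered 6 of 44 AptCD4-LNT and 16 of 117 Untreated cells, a split also set after the values were seen. Icam1 stood at 712 CPM in them against 155 in the rest of the AptCD4-LNT cells, and at 1363 against 51.6 in the Untreated library. Cxcl1 stood at 894 against 157 and 825 against 67.0, and Nr2f2 at 132 against 50.3 and 393 against 78.6 CPM. Gpihbp1 gave 0 CPM in the venous cells of both libraries against 782 and 554 in the rest, and Esm1 0 against 578.5 and 305.5. Cxcl9, the interferon-induced T cell attractant, stood at 16.6 against 610 and 39.3 against 780 CPM. In the Untreated library, 18 of 117 cells had 5 or more UMIs per 10000 of the arterial genes Gja4, Gja5, Stmn2, Sema3g and Hey1. Sox17, which did not enter that sum, stood at 405 CPM in them against 187 in the rest, Fbln5 at 382 against 31.3 and Efnb2 at 324 against 92.7. Of the AptCD4-LNT cells 1 of 44 reached that level, and 4 AptCD4-LNT and 9 Untreated cells lay just below it. A deeper cell needs more UMIs to reach it, and the AptCD4-LNT members were deeper.

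Genes induced by interferon stood lower in the AptCD4-LNT vessel cells. Of 22 measured genes 15 were called lower and 0 higher, where 9.1% of all measured genes were lower and 9.17% higher. The list's median log2 ratio was -0.87, and 20 of 22 lay below level. Iigp1, an interferon-induced GTPase, stood at 193 CPM (158 to 233) against 703 CPM (649 to 760), 3.65-fold lower (2.96 to 4.53). The guanylate-binding proteins Gbp4 and Gbp7 stood at 196 against 413 and 95.4 against 216.5 CPM, and Irgm1, another GTPase, at 20.2 against 81.5. Cxcl10, the attractant of T cells that carry Cxcr3, gave 2 UMIs in the AptCD4-LNT and 138 in the Untreated members, 3.67 against 154 CPM, a ratio of 42.0 (11.4 to 350.0). In all other filtered cells Cxcl10 stood at 93.9 and 124 CPM, and in macrophage-gated cells at 226 and 141. Irf1, a transcription factor that switches such genes on, stood at 103 against 152 CPM.

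Members of the list did not all differ. Bst2, the virus-tethering protein, was level at 506 against 491 CPM, as were Xaf1 at 42.2 against 42.4 and Oasl2 at 25.7 against 27.9. Cxcl9 stood at 536 against 682 CPM, but 58.6% of its AptCD4-LNT UMIs came from 1 cell, and without the highest cell of each library its log2 ratio was -1.50. At 2000 UMIs Iigp1 was found in 20.1% (9.80 to 35.3) of AptCD4-LNT and 56.5% (46.9 to 65.6) of Untreated members, and Gbp4 in 24.1% and 45.7%. The same genes were found in 0.661% and 5.77%, and 2.54% and 7.65%, of neutrophil-gated cells. In epithelial-gated cells, which may make them, the shares were 10.8% and 24.7%, and 6.95% and 24.6%. The list median ranged from -1.47 to -0.78 over all alternatives, and Isg15, at 44.0 against 73.7 CPM, was the 1 called member that changed side, to 0.03 under the stricter limits.

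**Figure D4:**
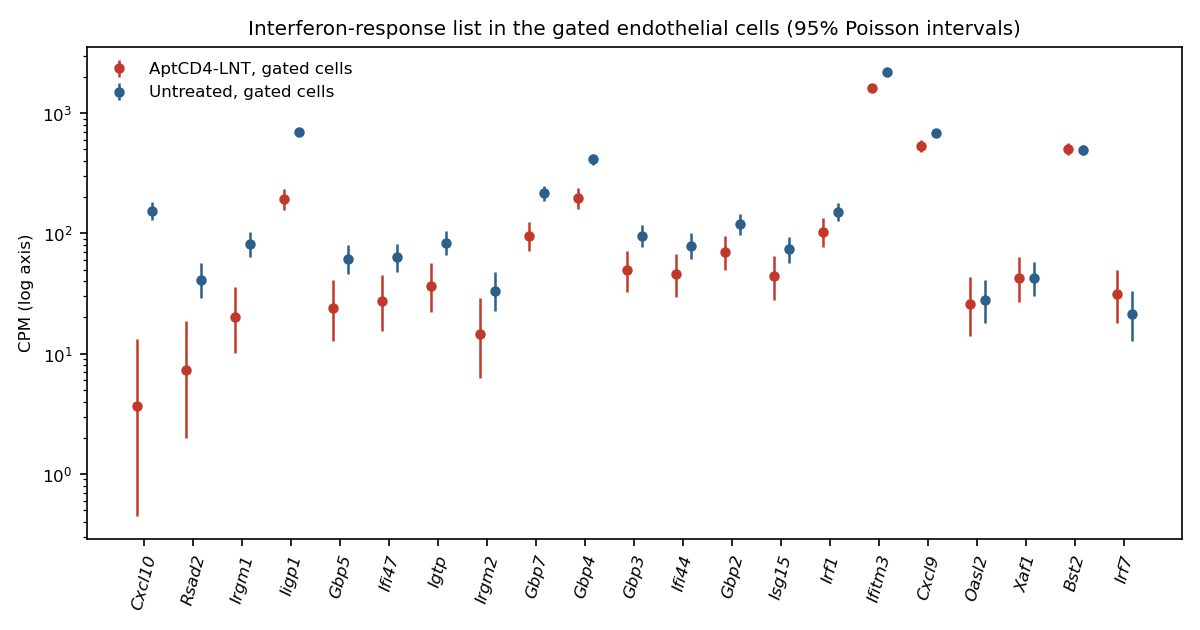
CPM (vertical axis, logarithmic) of 21 measured interferon-response genes, ordered by ratio, in the AptCD4-LNT (red) and Untreated (blue) gated cells, with exact 95% Poisson intervals as bars. Cxcl10, Rsad2, Irgm1 and Iigp1 lie furthest apart, and Xaf1 and Bst2 nearly coincide.

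Promoters of this list often carried interferon motifs, and 4 are shown because their genes bracket the result, from Cxcl10, the furthest apart, to Bst2, which was level. The sequences are the 250 bases before the start site in RefSeq, build GRCm38.p6, read 5′ to 3′ along the gene. Capitals mark matches to the interferon-stimulated response element, searched as GAAANN followed by GAAA, and to the gamma-activated site, searched as TTCNNNGAA, both on either strand.
Cxcl10: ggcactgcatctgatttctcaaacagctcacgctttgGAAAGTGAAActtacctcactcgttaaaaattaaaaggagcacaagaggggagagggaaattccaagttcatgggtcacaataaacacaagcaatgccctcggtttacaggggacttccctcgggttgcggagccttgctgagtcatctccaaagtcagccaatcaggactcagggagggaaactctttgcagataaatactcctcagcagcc
Irgm1: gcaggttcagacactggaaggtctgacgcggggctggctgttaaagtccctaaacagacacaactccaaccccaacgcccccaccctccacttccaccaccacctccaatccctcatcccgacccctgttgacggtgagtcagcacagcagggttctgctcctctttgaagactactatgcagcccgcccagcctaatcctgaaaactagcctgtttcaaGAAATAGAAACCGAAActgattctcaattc
Gbp7: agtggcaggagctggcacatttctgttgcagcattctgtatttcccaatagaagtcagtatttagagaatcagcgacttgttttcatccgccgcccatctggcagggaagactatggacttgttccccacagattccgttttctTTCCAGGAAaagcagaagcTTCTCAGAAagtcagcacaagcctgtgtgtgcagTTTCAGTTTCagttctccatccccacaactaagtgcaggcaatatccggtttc
Bst2: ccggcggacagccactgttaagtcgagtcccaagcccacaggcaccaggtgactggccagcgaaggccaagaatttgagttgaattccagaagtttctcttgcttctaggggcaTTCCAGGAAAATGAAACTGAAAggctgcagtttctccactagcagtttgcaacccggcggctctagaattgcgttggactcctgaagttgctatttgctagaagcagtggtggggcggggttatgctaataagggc
The window of Cxcl10 is chr5:92348890-92349139 on the minus strand, with 1 response element that begins 213 bases before the start. That of Irgm1 is chr11:48871421-48871670 on the minus strand, with 2 overlapping elements at 30 and 24 bases. That of Gbp7 is chr3:142530086-142530335 on the plus strand, with gamma-activated sites at 106 and 87 bases and an element on the opposite strand at 53. That of Bst2 is chr8:71537473-71537722 on the minus strand, with elements at 130 and 124 bases and a site at 136 that overlap each other. Of the 22 measured genes 19 had a promoter in the table, and in windows of 250 bases before to 50 after the start, 12 held the element, 7 the site and 13 either. The element was in 3.44% (1131 of 32851) and the site in 8.30% (2726) of all RefSeq promoters of that length. All 4 promoters shown held the element, which other promoters of the list lacked. The matches are letters in a window. Of the genes called level above, Bst2 carried both motifs, and Xaf1 and Oasl2 carried neither. A link between motifs and ratios was not tested.

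The lower interferon level was present on both sides of the Apln and Esm1 split. In the high cells the list had a median of -0.64, with 12 of 22 genes lower and 0 higher, and in the low cells a median of -0.92, with 15 of 22 lower and 1 higher, against the 14.4% and 17.5% of all genes lower in those cells. MHC class I genes, which present peptides to CD8 T cells, were level in the high cells at a median of -0.02 and lower in the low cells at -0.78. Over all members the class I list stood at -0.33, with 4 of 13 lower and 0 higher, where 9.1% of all measured genes were lower and 9.17% higher. The peptide transporters Tap1 and Tap2 stood at 89.9 against 175 and 51.4 against 110.5 CPM, while H2-K1 and B2m were close to level at 3556 against 3924 and 2550 against 2818 CPM. Class II genes gave a median of -0.19 with 0 of 4 called, where 18.3% of all measured genes were called in either direction.

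Chemokine genes went in both directions. Of 10 measured genes 5 were called higher and 3 lower, where 9.17% of all measured genes were higher and 9.1% lower. The list's median of 0.49 became -0.33 when each cell was weighted equally. Cxcl12, which holds cells with Cxcr4, stood at 84.4 against 261 CPM, 3.09-fold lower (2.25 to 4.34), and the cytokine Il6 gave 11 against 38 UMIs. The monocyte attractant Ccl2 gave 29 UMIs against 9, 5.30-fold higher (2.44 to 12.7), and the neutrophil growth factor Csf3 gave 31 against 19. Cxcl1 and Cxcl2, attractants of neutrophils, stood at 237 against 134 and 103 against 50.2 CPM, and without the highest cell of each library the log2 ratio of Cxcl2 was 0.20. S100a8 and S100a9 of neutrophils stood at 112 against 54.7 and 178 against 93.7 CPM in the members, and their part in these values was not tested. Of the leukocyte adhesion list 3 of 10 measured genes were lower, with Icam1 at 222 against 174 CPM and Vcam1 at 66.1 against 77.0.

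Most basement membrane genes lay slightly above level. Of 15 measured genes 14 lay above level with a median of 0.38, and 1, Lama5, was called higher, at 49.5 against 22.3 CPM. Of all 6387 measured genes 3295 lay above level, and 9.17% were called higher and 9.1% lower. The collagen IV genes Col4a1 and Col4a2 stood at 3516 against 2904 and 2270 against 2035 CPM, and perlecan, Hspg2, at 952 against 689. Fibronectin, Fn1, stood at 1207 against 889 CPM but took 42.7% of its AptCD4-LNT UMIs from 1 cell, and without the highest cells its log2 ratio was -0.14. Fibroblast markers, which include collagens, summed to 259 CPM in the AptCD4-LNT and 106 CPM in the Untreated members, with Dcn at 3 and 2 UMIs, and their part was not tested.

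Growth factor receptors and junction genes were near level apart from a few. The VEGF receptors Flt1 and Kdr, the latter a gate gene, stood at 1160 against 1270 and 495 against 375 CPM, and Flt4 at 71.6 against 39.1. The angiopoietin receptor Tek stood at 86.2 against 137 CPM, 1.59-fold lower (1.13 to 2.28). In the BMP and TGF-beta list 1 of 11 genes was higher, Smad7, and 1 lower, near the 9.17% and 9.1% of all measured genes. The lower one was the ligand Bmp2, at 91.7 against 320 CPM, 3.49-fold lower (2.58 to 4.81). No Notch gene was called among 8, with Notch1 at 242 against 219 CPM and Hes1 at 228 against 214. Claudin-5, Cldn5, the tight junction protein of vessels, stood at 239 against 503 CPM, 2.11-fold lower (1.73 to 2.58), and Cdh5, a gate gene, was level at 1708 against 1726. The flow-responsive factor Klf2 stood at 659 against 1186 CPM, 1.80-fold lower. In the clotting list tissue plasminogen activator, Plat, stood at 67.9 against 183 CPM. Of 5 measured lipid uptake genes 4 were lower, Fabp5 among them at 807 against 1287 CPM.

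Outside the lists, the genes furthest lower were led by Nts. Nts, the neurotensin precursor, gave 20 UMIs against 321, 9.76-fold lower (6.22 to 16.2), and was found in 2 AptCD4-LNT and 35 Untreated members before thinning. All other filtered cells gave 22 and 46 UMIs of it, or 0.224 and 0.353 CPM. Of its 20 AptCD4-LNT UMIs 19 came from 1 cell. Cxcl11 and Ubd, both induced by interferon gamma, stood at 42.2 against 291 and 34.9 against 216.5 CPM. Tsc22d3, a glucocorticoid-induced gene, stood at 33.0 against 114 CPM, and Mustn1, Acer2, Rbp7, Klk8, Emilin1 and Syn3 were between 3.24-fold and 7.18-fold lower. Among the genes furthest higher, Hbegf, a growth factor of the EGF family, stood at 259 against 89.3 CPM and was found in 32 and 54 members. The transcription factor Prdm1 stood at 132 against 44.6 CPM in 29 and 25 members, and Clca2, Nav2, Chst2 and Mir6236 were between 2.79-fold and 4.80-fold higher. Chga gave 75 UMIs in 2 cells against 5 UMIs in 4, and Lcn2 took 72.0% of its 250 AptCD4-LNT UMIs from 1 cell. Lcn2 and Il1b, the latter at 150.5 against 51.3 CPM, changed side under the stricter limits, to -0.04 and -2.84.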

How the data were processed

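Gene-by-cell UMI counts from 10x Genomics libraries of 1 AptCD4-LNT and 1 Untreated tumour mixture were used as deposited. The authors made these counts with Cell Ranger 7.2.0 on GRCm39, per the submitters' processing notes. Before gating, a cell had to hold at least 200 genes, and mitochondrial genes could take no more than 20% of its UMIs. UMIs were summed over the gated cells of a library and scaled to CPM. Genes with 30 or more UMIs over both libraries counted as measured, and 1.5-fold or more as higher or lower. Intervals are exact: Poisson for levels, Clopper-Pearson for shares, conditional binomial for ratios. With 1 library per group no test was run and no p-value is given. Shares at 2000 UMIs are expected values over random thinning. Co-detection is a mean of 20 draws. The arithmetic was tested on simulated data.

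The members and gene lists were chosen with earlier results of these data known. Named genes were the measured members of the vessel-position, interferon and marker lists, up to 4 members with the most UMIs and up to 4 with the largest ratio of every other list, the 10 largest ratios in each direction outside the lists, and the 20 genes with the highest fold over other cells. Some genes these rules name are not reported here. Other genes named, the splits by Apln and Esm1 or by venous or arterial genes, and the settings without pericyte-gene cells, without each gene's highest cell and for shares of cells were chosen after the values were seen. Scrublet was run per library as an alternative only; it called 2 of 49 and 4 of 146 members, and 2.26% and 7.45% of all cells. Alternatives also covered the gate, depth, weighting, scaling and thresholds. Promoters came from RefSeq on GRCm38.p6, which is not the build of the counts, and were matched by symbol. Python 3.11.15, numpy 2.4.6, scipy 1.17.1, pandas 2.3.3, matplotlib 3.10.9 and scanpy 1.11.5 were used.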

Additional observations from a re-analysis of the deposited data

How the results depend on the processing

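No paired analysis was possible because each group has 1 library, and for the same reason no library could be left out. Depth and cell number limit the values: 1 UMI is 1.83 CPM in the AptCD4-LNT and 1.12 CPM in the Untreated members, and a few deep cells carry some genes. Over the alternatives the ratio of endothelial shares ranged from 0.678 to 0.806, and the list medians (log2) ranged from -1.47 to -0.78 for interferon, -0.91 to -0.05 for arterial, -0.67 to -0.10 for venous and 0.15 to 0.60 for tip genes. The tip median was 0.47 with each cell weighted equally and 0.60 with cells thinned to 2000 UMIs. The capillary median was 0.17 under strict limits on other-cell genes, 0.053 without pericyte-gene cells, -0.67 with equal weights and -0.14 over genes with 100 or more UMIs. Of all measured genes 1167 were 1.5-fold or more apart, against 1895 with equal weights, 587 with thinned cells, 251 among genes with 100 or more UMIs, 4598 with no minimum and 294 at 2-fold. The share of these that were higher was 50.2%, and 34.2% without each gene's highest cell. Under strict limits the log2 ratio changed sign for Ackr1 (0.86), Vwf (0.35), Sele (0.44), Mgp (-0.36), Isg15 (0.031), Lcn2 (-0.036) and Il1b (-2.84). Sele also changed sign with equal weights (0.58), and Mgp without pericyte-gene cells (-0.38) and without its highest cell (-0.81). The cause was not tested. Of 1313 values for 102 named genes under the alternatives, 1187 stayed within their limits, 116 moved and 10 changed sign. A change of sign was counted only for genes 1.5-fold or more apart in the main setting. Sign changes of genes nearer to level are among the other values.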

Other observations

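Cycling genes stood lower in sum in the AptCD4-LNT endothelial cells. Of 16 measured proliferation genes 7 were lower and 1 higher by 1.5-fold or more. Over the same members 9.1% of all measured genes were lower and 9.17% higher. The list's median log2 ratio was -0.42, and -0.13 with each cell weighted equally. Mki67, a marker of dividing cells, stood at 60.6 against 99.3 CPM and the mitotic kinase Cdk1 at 116 against 199 CPM. The share of cells with a UMI of Mki67, Top2a, Birc5 or Cdk1 at 2000 UMIs was 22.8% and 24.1%, against 5.42% and 8.94% of neutrophil-gated and 30.4% and 33.9% of epithelial-gated cells. With 5 or more UMIs of these genes per 10000, a split set after the values were seen, the shares were 9.09% (2.53 to 21.7) and 18.8% (12.2 to 27.1). Within the cells rich in Apln and Esm1 the list had a median of -0.88, with 12 of 16 genes lower, and in the other cells -0.01, with 2 lower and 5 higher. Of all genes 14.4% were lower in the rich cells, and 17.5% were lower and 18.5% higher in the others.

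Glycolysis and hypoxia genes were near level, with 2 of 13 measured genes higher and 1 lower. Adm and Ankrd37, both induced by low oxygen, were the higher ones, Ankrd37 at 183.5 against 108 CPM, and the glycolytic regulator Pfkfb3 was lower at 49.5 against 114 CPM. Immediate early genes, which rise when tissue is dissociated, gave 0 higher and 2 lower of 18. Of all measured genes 9.17% were higher and 9.1% lower. Fos stood at 1206 against 1321 and Jun at 734 against 759 CPM. Among genes known to restrain lymphocytes, Ednrb, an endothelin receptor, stood at 58.7 against 135 CPM, Cd274, which encodes PD-L1, gave 3 and 16 UMIs, and Fasl gave none.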
